A study of Mus musculus with 16 samples.

Results

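The replication-dependent histone genes are described here in mouse CD8+ T cells edited with a guide against Tardbp, the gene of the RNA-binding protein TDP-43, which acts in splicing and other RNA processing. The members were the protein-coding genes whose GENCODE M21 symbol starts with Hist1h, Hist2h, Hist3h or Hist4, and 67 of the 55536 annotated genes in the count table met this rule. They comprised 6 genes of linker histone H1, 18 of H2A, 18 of H2B, 12 of H3 and 13 of H4. By position, 54 lay in the Hist1 cluster on chromosome 13, 10 in the Hist2 cluster on chromosome 3, 2 in Hist3 on chromosome 11 and 1 in Hist4 on chromosome 6. Naive CD8+ T cells came from OT-I mice, whose transgenic T cell receptor sees the SIINFEKL peptide of ovalbumin and which were Rag1-/- or Rag2-/-. They received Cas9 by electroporation with a scrambled guide (Control gRNA) or one against Tardbp (Tardbp gRNA), and no sorting for edited cells is described. The share of edited cells was not measured here. By the study's account, an immunoblot of pooled cells showed that the protein was not made with the Tardbp guide. All recipients were C57BL/6J mice that got SIINFEKL and the agonist antibodies anti-OX40 and anti-41BB. Both sexes were used. The study's reporting summary gives an age of 6 to 12 weeks, and its methods give a wider range that reaches 8 months. The transferred cells were sorted from spleen and lymph nodes, after 4 days by the labels and 3 days and 12 h by the study's methods. There were 8 libraries per group, each from an individual recipient by the study's account. Its text also names a stimulation of the purified cells beside the sequencing. Whether the sequenced cells had been stimulated in this way is not clear from it.

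In dividing cells the replication-dependent histone genes supply the bulk of the nucleosome core proteins H2A, H2B, H3 and H4 and of the linker histone H1 while DNA is copied. Their genes mostly lack introns, occur in many near-identical copies in clusters, and often lie head to head as H2A and H2B pairs that share the stretch between their start sites. Their mRNAs usually end without a poly(A) tail, just after a conserved stem-loop that is bound by SLBP and cut by a machinery that holds the U7 small nuclear RNA. Some of the genes also give transcripts that run past the stem-loop to a polyadenylation signal. The libraries here were primed with oligo-dT, so a level measured in them is that of RNA caught by such priming. It is not the total level of histone mRNA, and how much of each histone mRNA was caught was not tested.

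The stem-loop is shown first, because it sets these mRNAs apart from others and the libraries were primed on poly(A). The annotated transcripts were searched on their sense strand for the consensus of the histone 3′ stem-loop. It was found in 46 transcripts of 44 members, and in 60 transcripts of 53 genes among all 55450 genes searched, which is 0.096% of them. The 44 members used 6 forms of the sequence. The form of Hist1h1d was carried by 26 members of all classes but H4, that of Hist1h4d by 7 H4 genes, that of Hist1h3c by 6 members, those of Hist1h4i and Hist1h4b by 2 H4 genes each, and that of Hist2h2ac by Hist2h2ac alone. They are given below 5′ to 3′ on the gene's strand, from GENCODE M21 transcripts (GRCm38), with 5 flanking bases on each side and the 16 bases of the stem-loop in capitals.
Hist1h1d, plus strand, chr13:23555787-23555802: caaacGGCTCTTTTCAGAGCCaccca
Hist1h4d, plus strand, chr13:23581950-23581965: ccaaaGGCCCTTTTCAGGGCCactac
Hist1h3c, minus strand, chr13:23745047-23745062: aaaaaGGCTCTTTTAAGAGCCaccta
Hist1h4i, minus strand, chr13:22040966-22040981: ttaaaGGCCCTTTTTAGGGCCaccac
Hist1h4b, plus strand, chr13:23757366-23757381: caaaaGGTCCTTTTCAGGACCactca
Hist2h2ac, minus strand, chr3:96220418-96220433: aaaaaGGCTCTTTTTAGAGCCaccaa

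How far the annotated transcript extends differed between members, and this bears on which reads can be counted. In 21 transcripts the annotation ended within 60 bases of the stem-loop, as in Hist1h2ap-201, which stops 3 bases after it. In 25 transcripts it ran further, as in Hist1h1d-201, which goes on for 4884 bases, and Hist1h4d-201, which goes on for 770. Another 17 transcripts ended within 30 bases of the stop codon, as in Hist1h1b-201 with 0 bases after it, so they hold no 3′ untranslated region to search. The other 12 held none of the consensus, among them the single transcript of Hist2h2be, which goes on 2192 bases past the stop codon and has a polyadenylation hexamer (AATAAA or ATTAAA) in its last 60 bases.

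The counts were estimated per gene by the authors with StringTie and are given as CPM, counts scaled to a common library total after TMM, a normalization for library composition. Libraries held 56016533 to 94801105 counts in annotated genes. The members together held 0.212 to 0.297% of them. Tardbp itself was at 192.4 ± 13.3 CPM in Control gRNA and 134.9 ± 11.3 in Tardbp gRNA (SD, n = 8 per group), and the highest Tardbp library, at 147.2, was below the lowest Control library, at 171.8 (edgeR adjusted p 8.07e-07, log2 fold change -0.51). The deposited RNA concentration, which has no unit, ran from 34.9 to 197.1 in Control gRNA but from 10.1 to 24 in Tardbp gRNA, so the concentration and the group cannot be told apart. All 6 CD8 T cell markers were present and rose, from a summed 3408 to 4271 CPM to 5211 to 6697. The summed globin and other red cell precursor markers came to 0.442 to 17.4 CPM in Control gRNA against 9.02 to 181.5 in Tardbp gRNA, with 4 of 4 tested genes higher. Myeloid markers summed to 24.8 to 44.6 against 31.2 to 90.2 CPM, with 2 of 7 higher (Lyz2 and S100a8), and CD4 T cell markers to 4.39 to 20.7 against 6.15 to 15.6 CPM, with none of 4 called. Of B cell genes, Ms4a1 reached at most 2.22 CPM and Pax5 0.0259, while Ighm rose from 403.8 ± 26.5 to 640.4 ± 51.1 CPM (n = 8 each, SD). The part of these other markers in the results on histone genes was not tested. In these bulk samples fewer cells in S phase and less histone RNA per cell cannot be told apart.

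Of the 67 members, 62 passed the filter on low counts. The other 5 were Hist1h1t, Hist1h2aa, Hist2h2aa1, Hist2h2bb and Hist2h3b. Hist1h1t, the testis linker histone, had no count in 11 of 16 libraries, and Hist1h2aa, a testis H2A gene, was at 0 in all 16. Tested with edgeR across all genes, 16 of the 62 members differed between groups at an adjusted p under 0.05, with 11 lower and 5 higher in Tardbp gRNA. Over all 16650 tested genes 46.7% were called, 23.5% higher and 23.3% lower, so 25.8% of the tested members is a smaller share than that of all genes. The median log2 fold change was -0.06 over the tested members and 0.05 over all tested genes. The libraries of the groups did not overlap for 2 of the 62, Hist1h1b and Hist1h4d, against 16.9% of all tested genes. Scaling by library totals alone gave 7 lower and 6 higher.

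**Figure D1:**
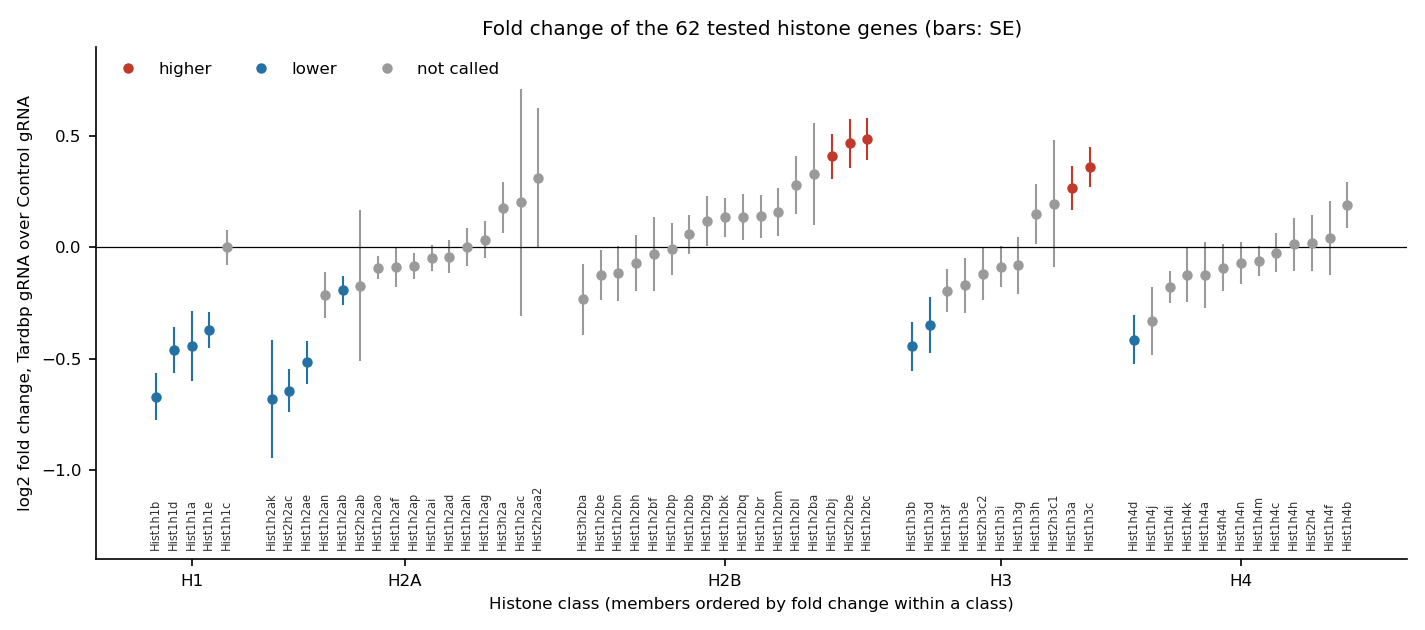
Fold change of each tested histone gene. The vertical axis is the log2 fold change of Tardbp gRNA over Control gRNA with its SE, and the horizontal axis lists the 62 tested members by class, coloured by whether the edgeR adjusted p was under 0.05. Among H1 genes 4 of 5 were lower, and among H2B genes 3 of 17 were higher and none lower. Of H2A genes 4 of 16 and of H4 genes 1 of 13 were lower, and H3 had 2 of 11 in each direction. Over all tested genes 23.3% were lower and 23.5% higher.

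The members were not evenly measurable, because many of them are near-identical. Every stretch of 100 bases in a member's transcripts was looked up in the transcripts of all other genes, on the sense strand only. Genes on the opposite strand of a member are therefore not counted. At least 1 stretch was shared by 60 of the 67 members, and 25 shared more than 50% of theirs. Reads could thus be credited to a copy or to a gene model that overlaps the member, and the values of these members are uncertain. Hist3h2a shared stretches only with the overlapping Trim17 (29.8%), and Hist2h2bb only with the overlapping Gm42743 (45.4%). Hist1h2ap shared 92.2% of its stretches, Hist1h2ao 92.7% and Hist1h2bq 96.9%. The 7 members with none shared were Hist1h1a, Hist1h1b, Hist1h1t, Hist1h2aa, Hist1h4d, Hist2h2be and Hist2h4. Of the 5 of these that were tested, 3 were lower (Hist1h1a, Hist1h1b and Hist1h4d), 1 was higher (Hist2h2be) and Hist2h4 was not called. Among the 23 tested members with more than 50% shared, 2 were lower, none was higher and the median log2 fold change was -0.06. Over all tested genes 23.3% were lower and 23.5% higher.

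Linker histones, which sit on the DNA between nucleosomes, were the class with the largest share of calls. Of 5 tested genes 4 were lower and none higher, where 23.3% of all tested genes were lower. The median log2 fold change was -0.44. Hist1h1b (ENSMUSG00000058773, the gene of H1.5, minus strand, chr13:21779883-21780625) was at 69.1, 80.4 and 103.4 CPM in the lowest, median and highest Control library. In Tardbp gRNA these values were 34.7, 53.0 and 63.3 CPM. The groups did not overlap, with all Tardbp libraries lower. The mean fell from 82.2 ± 10.1 to 51.6 ± 9.42 CPM (n = 8 each, SD), which gave a log2 fold change of -0.67 with an SE of 0.106 (edgeR adjusted p 4.48e-05).

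Hist1h1e (chr13:23620629-23622558), the gene of H1.4, was at 29.6, 35.7 and 39.6 CPM in the lowest, median and highest Control library and at 22.4, 26.8 and 33.7 CPM in Tardbp gRNA. Its groups overlapped, and its log2 fold change was -0.37 (SE 0.0791, edgeR adjusted p 7.99e-04). It overlaps the span of Hist1h2be in part, on the same strand, and 24.7% of its stretches were shared with other genes. Hist1h1d, the gene of H1.3, fell from 18.9 ± 2.21 to 13.7 ± 2.35 CPM (n = 8 each, SD, log2 fold change -0.46, edgeR adjusted p 0.00138). Hist1h1a, the gene of H1.1, fell from 4.93 ± 1.06 to 3.62 ± 0.882 CPM (n = 8 each, SD, log2 fold change -0.44, edgeR adjusted p 0.0272). The Hist1h1a call was lost without the Control library 2 (edgeR adjusted p 0.0562), with library totals as scaling (0.0607), with no filter (0.0535) and in libraries 4 to 8 (0.0638), and 6 of 11 alternative fits kept it. Hist1h1c, the gene of H1.2, had 19.0 ± 1.45 CPM in Control gRNA and 19.0 ± 2.43 in Tardbp gRNA (SD, n = 8 per group). Its log2 fold change was 0.00 with an SE of 0.0794, so the difference was smaller than the spread between libraries. Summed over the 6 genes, H1 stood at 135.5 to 188.7 CPM in Control gRNA against 92.7 to 129.9 in Tardbp gRNA. These ranges do not overlap, and the Tardbp mean was 71.9% of the Control mean. This sum was not tested. Hist1h1b held the largest part of it, at means of 82.2 of 160.0 CPM in Control gRNA and 51.6 of 115.0 in Tardbp gRNA. It was the only tested H1 gene whose groups did not overlap.

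**Figure D2:**
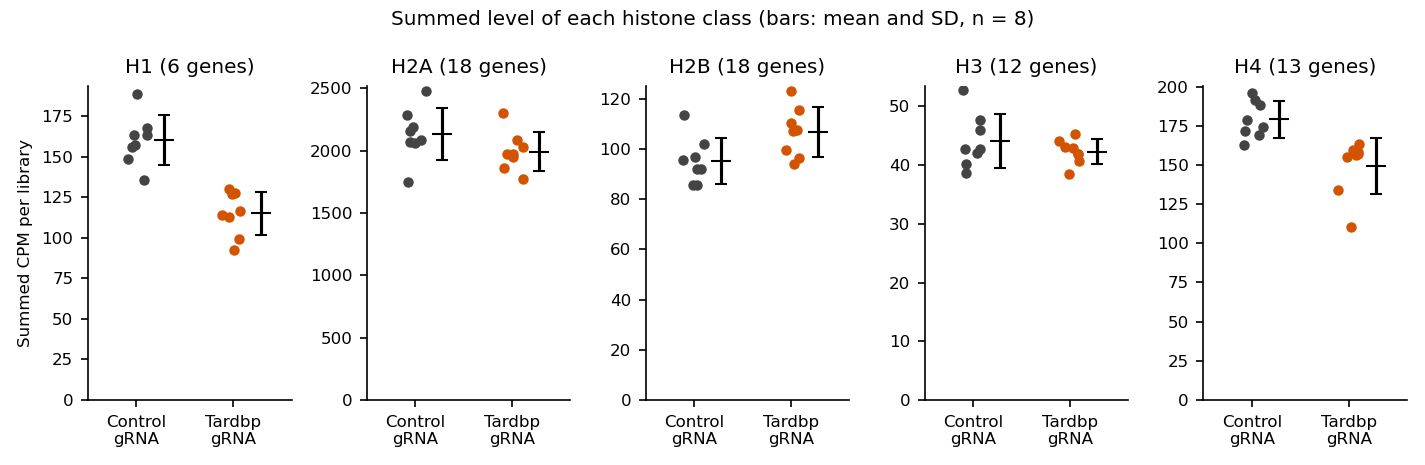
Summed level of each histone class in each library. The vertical axes give CPM summed over the genes of a class and start at 0, points are libraries, and bars are the mean and SD of 8 libraries. H1 sums do not overlap between groups, H4 sums overlap only between 162.9 and 163.1 CPM, and H2A, H2B and H3 sums overlap widely.

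H2A genes, which encode a core histone of the outer part of the nucleosome, supplied 82.2% of the summed CPM of the members. The class had 16 tested genes, of which 4 were lower, none was higher and 12 were not called, with a median log2 fold change of -0.09. The 4 are 25.0% of the class, near the 23.3% of all tested genes that were lower. Its summed level was 2136 ± 210.0 CPM in Control gRNA and 1994 ± 157.8 in Tardbp gRNA (SD, n = 8 per group). The most abundant member of all, Hist1h2ap, was at 613.2, 720.4 and 857.5 CPM in the lowest, median and highest Control library and at 619.2, 700.0 and 764.5 CPM in Tardbp gRNA. The groups overlapped, with the highest Control library above all Tardbp libraries, and the log2 fold change was -0.08 (SE 0.0568, edgeR adjusted p 0.248). Hist1h2ao followed at 433.9 ± 34.4 and 407.1 ± 27.5 CPM (n = 8 each, SD), with a log2 fold change of -0.09 (edgeR adjusted p 0.159). It had an adjusted p of 0.0335 in libraries numbered 4 to 8 and of 0.0327 without the Control library 3.

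The H2A gene with the smallest adjusted p was Hist2h2ac (minus strand, chr3:96220361-96220880), which also carries the stem-loop form found in no other member. It was at 20.5, 29.1 and 32.2 CPM in the lowest, median and highest Control library and at 15.6, 18.1 and 23.0 CPM in Tardbp gRNA. Only the lowest Control library reached into the Tardbp range. The log2 fold change was -0.64 (SE 0.0957, edgeR adjusted p 2.38e-05). Hist2h2ac was the only member still called when the RNA concentration was set as a covariate, with a log2 fold change of -0.64 and an edgeR adjusted p of 0.0373. In that fit 16.2% of all tested genes were called. The concentration ranges of the groups do not overlap, so a call kept or lost in this fit cannot separate the guide from the concentration.

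Hist1h2ae (minus strand, chr13:23570517-23571220) was at 113.1, 131.4 and 166.4 CPM in the lowest, median and highest Control library and at 70.9, 89.9 and 114.4 CPM in Tardbp gRNA. The ranges met at their ends, and the log2 fold change was -0.52 (SE 0.0961, edgeR adjusted p 2.36e-04). Hist1h2ab fell from 38.9 ± 3.88 to 34.0 ± 2.70 CPM (n = 8 each, SD, log2 fold change -0.19, edgeR adjusted p 0.0218). This call was kept in 7 of 11 alternative fits, and with library totals as scaling the log2 fold change was -0.12 (edgeR adjusted p 0.125). Hist1h2ak had the lowest log2 fold change of any member, -0.68, with an SE of 0.265 and an adjusted p of 0.0423. Its Control libraries ran from 14.1 to 63.4 CPM and its Tardbp libraries from 20.3 to 46.3, and the call was lost in 12 of the 16 fits that leave out 1 library, with adjusted p of 0.0540 to 0.0803. It was kept without the Control library 3 or 5 and without the Tardbp library 1 or 7.

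Inside 17 members, all of them H2A genes, the annotation places a short miRNA gene on the opposite strand, and the estimated counts of a miRNA gene summed over libraries ran from 0 to 21716. Counting by strand is not stated in the sources used here, so reads of the histone gene and of the miRNA gene cannot be told apart. An example was Hist1h2ac, which had 3031 to 5469 counts in 15 libraries and was listed at 0 in the Control library 3, where the miRNA gene Gm44350 inside it had 1388 counts against 0 to 110 in the other 15. With that library the log2 fold change of Hist1h2ac was 0.20 (SE 0.511, edgeR adjusted p 0.775), and without it 0.01 (SE 0.0988, edgeR adjusted p 0.953). Hist2h2aa1 showed a second case. It had 344 to 487 counts in 4 libraries and 0 in the other 12, and the 4 were the same libraries in which Gm20634, a transcript model that overlaps Hist2h2aa1 and Hist2h3c1, had 507 to 945 counts in place of 0. In those 4 libraries Hist2h3c1 had 154 to 178 counts, against 259 to 556 in the other 12. Adding the counts of annotated genes that lie wholly inside a member to that member, chosen after seeing the data, left 16 members called, all of them the same.

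**Figure D3:**
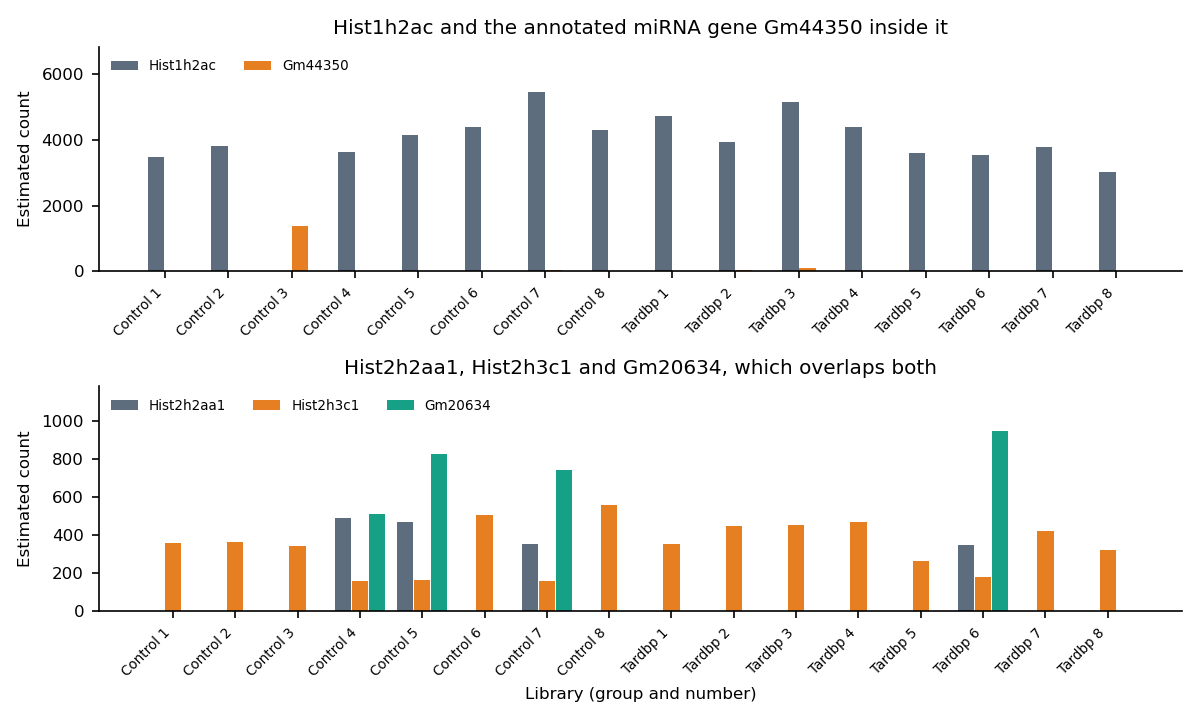
Estimated counts per library at the loci of Hist1h2ac and of Hist2h2aa1. Bars give the count of each gene in each of the 16 libraries, from 0. Hist1h2ac is at 0 only in the Control library 3, where Gm44350 has 1388 counts, and Hist2h2aa1 is above 0 only in the 4 libraries where Gm20634 is.

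H2B genes, whose product pairs with H2A, were the class in which no member was lower. Of 17 tested genes, 3 were higher and 14 were not called, with a median log2 fold change of 0.14. The 3 are 17.6% of the class, a smaller share than the 23.5% of all tested genes that were higher. Hist1h2bc (plus strand, chr13:23684199-23692908), annotated with an intron and no stem-loop, was at 7.41, 8.77 and 11.1 CPM in the lowest, median and highest Control library. In Tardbp gRNA these values were 10.3, 12.9 and 14.1 CPM. The ranges overlapped slightly, and the mean rose from 8.96 ± 1.29 to 12.6 ± 1.44 CPM (n = 8 each, SD), which gave a log2 fold change of 0.49 with an SE of 0.0947 (edgeR adjusted p 3.45e-04).

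Hist2h2be (plus strand, chr3:96221119-96223738) was at 3.61, 4.97 and 5.65 CPM in the lowest, median and highest Control library and at 5.29, 6.63 and 8.38 CPM in Tardbp gRNA. Its log2 fold change was 0.47 (SE 0.110, edgeR adjusted p 0.00188). Hist1h2bj, the H2B gene with the highest CPM, rose from 11.2 ± 1.06 to 14.9 ± 2.71 CPM (n = 8 each, SD, log2 fold change 0.41, edgeR adjusted p 0.00271), and 40.1% of its stretches were shared with other genes. The transcript annotated for Hist1h2bc and that of Hist2h2be were both without the stem-loop consensus, while that of Hist1h2bj ended at it.

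H3 genes held 1.72% of the members' CPM and were called in both directions. Of 11 tested genes 2 were lower, 2 higher and 7 not called, with a median log2 fold change of -0.09. Called genes were 36.4% of the class, against 46.7% of all tested genes. Hist1h3b fell from 6.09 ± 0.597 to 4.49 ± 0.796 CPM (n = 8 each, SD, log2 fold change -0.44, edgeR adjusted p 0.00280) and Hist1h3d from 5.30 ± 0.574 to 4.16 ± 0.883 (log2 fold change -0.35, edgeR adjusted p 0.0315). The call of Hist1h3d was lost without the Control library 2 or 3. Hist1h3c rose from 3.90 ± 0.239 to 5.01 ± 0.683 CPM (n = 8 each, SD, log2 fold change 0.36, edgeR adjusted p 0.00329). Hist1h3a had a log2 fold change of 0.27 (edgeR adjusted p 0.0326) that missed the threshold in 7 of 16 fits without 1 library (Control 5 or 6, Tardbp 1, 4, 5, 6 or 8), with adjusted p of up to 0.102. Hist1h3b and Hist1h3c lie on opposite strands within the same block of chromosome 13, at chr13:23752267-23752886 and chr13:23744973-23745602.

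Of 13 tested H4 genes 1 was called, or 7.69%, against 46.7% of all tested genes. Hist1h4d (plus strand, chr13:23581598-23582735) was at 95.6, 103.4 and 113.9 CPM in the lowest, median and highest Control library. In Tardbp gRNA these values were 42.2, 82.4 and 90.2 CPM, and all 8 Tardbp libraries lay below all 8 Control libraries. The log2 fold change was -0.41 (SE 0.111, edgeR adjusted p 0.00501), and -0.32 without the Tardbp library 3, which had 42.2 CPM where the next had 74.6. Hist1h4d shares no stretch with another gene, although its product is the same protein as that of other H4 genes. It held more CPM than the 12 other H4 genes together, since the class summed to 179.0 ± 11.7 CPM in Control gRNA and 149.3 ± 17.9 in Tardbp gRNA. Hist1h4i, the next by CPM, was at 19.6 ± 1.37 and 17.3 ± 2.02 CPM (n = 8 each, SD), or a log2 fold change of -0.18 (edgeR adjusted p 0.0537). It passed the threshold in 6 of 16 fits that leave out 1 library (Control 3 or 4, Tardbp 1, 2, 6 or 8).

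Levels of different members were compared as CPM per kilobase of annotated exons, averaged over the 16 libraries. Hist1h2ap was the highest at 1477 ± 127.7 (SD, n = 16), followed by Hist1h2ao at 876.0 ± 69.0, Hist1h2ah at 553.7 ± 71.0 and Hist1h2ag at 526.3 ± 66.5 CPM per kb. Hist1h2ah and Hist1h2ag did not differ beyond their spread. Hist1h2an at 225.4 and Hist1h2ae at 159.8 were the only others above 100 CPM per kb, so the 6 highest were all H2A genes. In Control gRNA alone Hist1h1b, at 110.6, and Hist1h2ak, at 105.7, also passed 100 CPM per kb, and in Tardbp gRNA they were at 69.5 and 65.9. Next came Hist1h1b at 90.1, Hist1h2ad at 86.2, Hist1h2ak at 85.8 and Hist1h4d at 80.5 CPM per kb, which lay within 1 SD of each other. Of the 67 members 53 were under 30 CPM per kb, and 59 of the 66 pairs of neighbours in the order overlapped within 1 SD. The length is that of the annotation, which for Hist1h1d is 7425 bases of exons and gives 2.20 CPM per kb.

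The head-to-head pairs showed how uneven the levels of neighbours were. The members formed 12 pairs of an H2A and an H2B gene that point away from each other, with 176 to 306 bases between them. In 11 of the 12 the H2A gene had the higher level per kilobase, by 2.09 times for Hist1h2ac and Hist1h2bc up to 512.5 times for Hist1h2ap and Hist1h2br. The pair without this order was Hist1h2aa, at 0, and Hist1h2ba, at 0.738 CPM per kb. Hist1h2ap shares 92.2% and Hist1h2br 91.5% of its stretches with other genes, so this ratio rests on how reads were assigned to copies. It also rests on the annotated exon lengths, 482 bases for Hist1h2ap and 2212 for Hist1h2br. Their mean levels before division by length were 712.1 and 6.37 CPM. Between groups, at least 1 gene was called in 5 of the 12 pairs and both genes in 1, where 46.7% of all tested genes were called. In that pair Hist2h2ac was lower and Hist2h2be, 239 bases away, was higher, with log2 fold changes of -0.64 and 0.47. Hist1h2ae was lower, while Hist1h2bg, 176 bases away, had a log2 fold change of 0.12 (edgeR adjusted p 0.409). Hist1h2bj was higher, while Hist1h2ag, 270 bases away, had a log2 fold change of 0.03 (edgeR adjusted p 0.766).

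**Figure D4:**
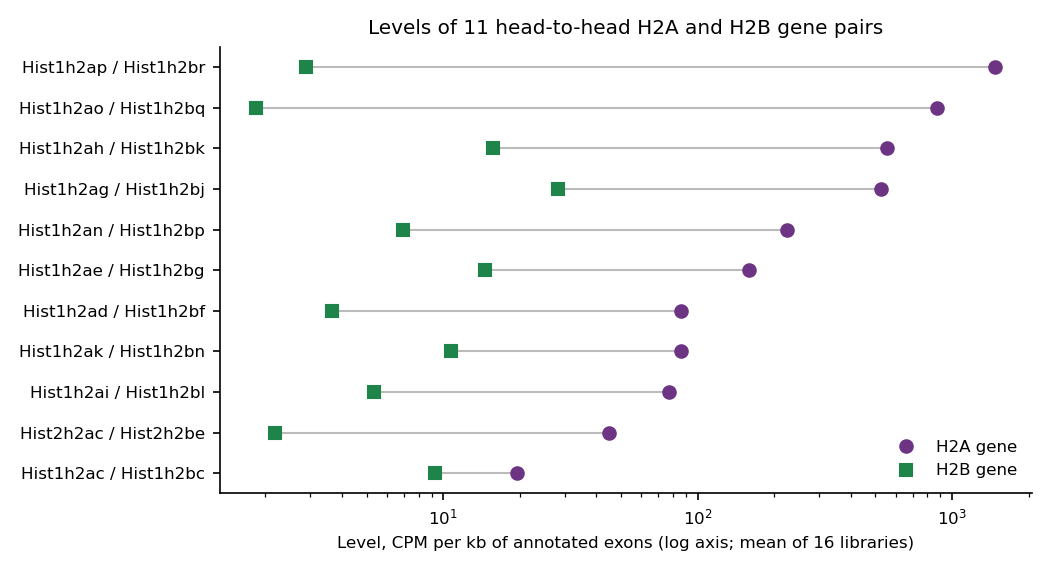
Levels of the H2A and H2B genes of 11 head-to-head pairs. The horizontal axis is a log axis of CPM per kb of annotated exons, the mean of 16 libraries, and each line joins the genes of a pair. The H2A gene is to the right in every pair shown, and the gap is narrowest for Hist1h2ac and Hist1h2bc.

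Promoters are shown for 5 members with different calls, because their start regions carry known elements of histone genes. RefSeq entries (GRCm38.p6, 250 bases before to 50 after the start) were found for 62 of the 67 members. Searched on both strands over these 300 bases, CCAAT was in 85.5% of the members' promoters and in 37.4% of all promoters. It was in all H1, H2A, H2B and H3 promoters and in 3 of 12 H4 promoters. TATAAA was in 56.5% of the members' promoters and 13.6% of all. The octamer ATTTGCAT was in 13 of the 62, in 7 H2A and 6 H2B promoters, against 1.74% of all. The H1 box AAACACA was in 5 of 6 H1 promoters and in 7.18% of all promoters. Matches of different elements overlapped in 0 of the 62 promoters. The last 150 bases before the RefSeq start are printed on the gene's strand, and capitals mark the letters of these 4 elements on either strand.
Hist1h1b, lower, minus strand, chr13:21780626-21780775: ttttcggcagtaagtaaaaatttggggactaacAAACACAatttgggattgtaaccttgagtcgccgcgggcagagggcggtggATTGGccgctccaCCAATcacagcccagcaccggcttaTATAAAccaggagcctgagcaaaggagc
Hist1h1c, not called, plus strand, chr13:23738657-23738806: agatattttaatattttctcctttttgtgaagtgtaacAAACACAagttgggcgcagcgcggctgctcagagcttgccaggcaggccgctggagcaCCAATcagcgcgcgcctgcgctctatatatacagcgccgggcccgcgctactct
Hist2h2ac, lower, minus strand, chr3:96220881-96221030: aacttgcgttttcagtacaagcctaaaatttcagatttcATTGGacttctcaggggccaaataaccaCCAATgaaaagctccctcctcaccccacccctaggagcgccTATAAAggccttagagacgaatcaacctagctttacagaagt
Hist1h2bj, higher, plus strand, chr13:22043048-22043197: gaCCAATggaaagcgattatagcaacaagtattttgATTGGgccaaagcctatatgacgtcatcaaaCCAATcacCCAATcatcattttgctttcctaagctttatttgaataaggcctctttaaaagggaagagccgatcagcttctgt
Hist1h4d, lower, plus strand, chr13:23581418-23581567: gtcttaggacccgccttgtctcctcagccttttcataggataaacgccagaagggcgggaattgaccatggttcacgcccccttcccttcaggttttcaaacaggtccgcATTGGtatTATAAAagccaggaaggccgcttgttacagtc

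Set beside the calls, all 11 members that were lower had TATAAA on either strand in the 300 bases. A match could therefore be that of a head-to-head partner. In Hist1h2ae the only match in the 150 bases before the start was on the opposite strand, and it is the TATAAA that lies before Hist1h2bg. In Hist1h3d the only match there was also on the opposite strand. Hist1h2ak had none in these 150 bases, and the RefSeq start of Hist1h1d lies 1770 bases from its GENCODE start. Of 33 tested members with TATAAA, 11 were lower, none was higher and the median log2 fold change was -0.13, and of 24 tested members without it none was lower, 2 were higher and the median was 0.01. The remaining 3 higher members, Hist1h2bc, Hist1h3a and Hist2h2be, had no RefSeq entry to search. This division was looked at with the calls known and was not tested, and TATAAA is also unevenly spread over the classes, from 40.0% of H3 to 66.7% of H1 and H4 promoters. Members with the octamer had 3 lower and 0 higher of 11 tested and a median log2 fold change of 0.12. Those without it had 8 lower and 2 higher of 46 tested and a median of -0.08. The summed Tardbp mean was 91.3% of the Control mean with the octamer and 91.9% without it. Along chromosome 13 the Hist1 genes fell into a block at chr13:21715763-22043676 with 23 members, of which 2 were lower and 1 higher, and a block at chr13:23531050-23934851 with 29 tested members, of which 8 were lower and 3 higher, with medians of -0.06 and -0.07. By annotated 3′ end, 5 of 22 tested members running past the stem-loop were lower and 1 higher, and 3 of 19 ending at it were lower and 2 higher. For each of these divisions, the shares over all tested genes were 23.3% lower and 23.5% higher.

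Of the 75 annotated transcripts of members, 67 were tested with edgeR on transcript counts, where 16.6% of all 40897 transcripts were called, 8.5% higher and 8.14% lower. Of the 67, 7 were lower and 3 higher. Each of these 10 was the only annotated transcript of a gene called above, as 62 members have 1 annotated transcript. Their counts are those of the gene, so these calls repeat the gene calls and are no separate result. Transcripts as shares of their gene could be tested with limma for 9 transcripts of 4 H2B genes, Hist1h2be, Hist1h2bp, Hist1h2bq and Hist1h2br. None passed an adjusted p of 0.05, none had an unadjusted p under 0.05, and 4.45% of all transcript shares tested were called. The widest difference was that of Hist1h2br-202, which ends at the stop codon, at 73.1 ± 22.7% of the gene's counts in Control gRNA and 54.2 ± 25.4% in Tardbp gRNA (SD, n = 8 per group, limma adjusted p 0.465). Hist1h2br-203, which has 2 exons and a polyadenylation hexamer, was at 17.1 ± 17.8% and 33.2 ± 22.8%. The shares of Hist1h2br-202 ran from 19.2 to 93.8% among Control libraries alone, and Hist1h2br shares 91.5% of its stretches with other genes.

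Genes that work with the histone genes were taken from lists by known role. Of 22 genes of S phase, the time in which replication-dependent histones are made, 20 were lower and none higher. Over all tested genes 23.3% were lower and 23.5% higher. The median log2 fold change of the list was -0.56. The lowest was Pola1, the catalytic subunit of DNA polymerase alpha, at -0.89 (edgeR adjusted p 7.40e-08). Ccne1 and E2f1 were not called. All 62 tested members lay above Pola1, and 16 of them were called against the 20 of 22 here.

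**Figure D5:**
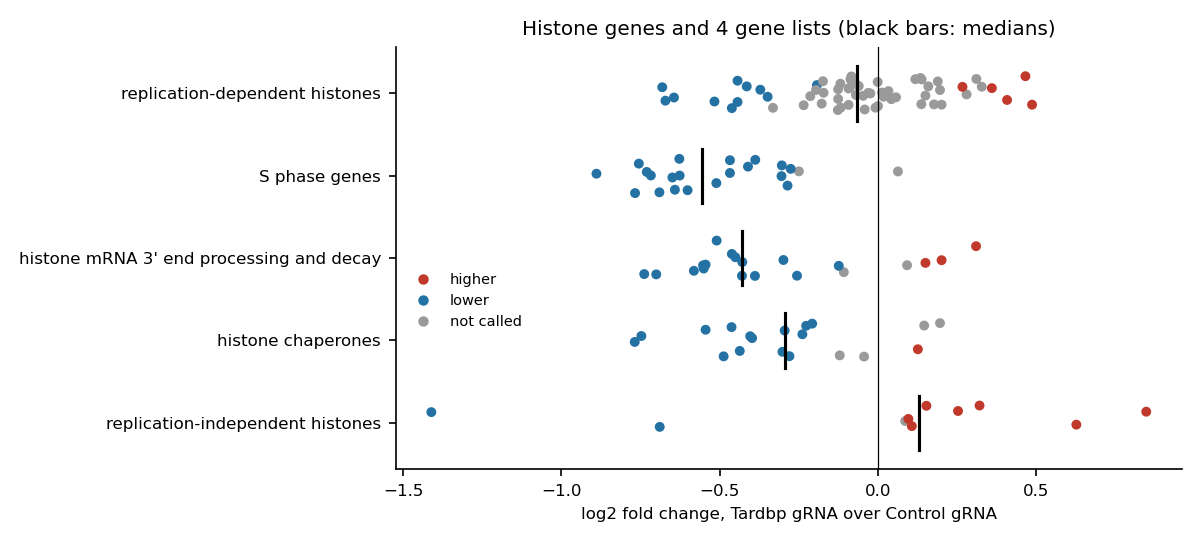
Fold changes of the histone genes and of 4 gene lists. The horizontal axis is the log2 fold change of Tardbp gRNA over Control gRNA, each point is a tested gene coloured by its call, and black bars are medians. The medians are -0.56 for S phase genes, -0.43 for genes of histone mRNA 3′ end processing and decay, -0.29 for chaperones, -0.06 for replication-dependent and 0.13 for replication-independent histones.

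Among 20 genes for the 3′ end processing and decay of histone mRNA, 15 were lower, 3 higher and 2 not called. The shares over all tested genes were 23.3% lower and 23.5% higher. The median log2 fold change of the list was -0.43. Slbp, the stem-loop binding protein, fell from 705.1 ± 31.8 to 590.7 ± 27.2 CPM (n = 8 each, SD, log2 fold change -0.26, edgeR adjusted p 1.25e-05), with no overlap between groups. Npat, which activates histone gene transcription in S phase, had a log2 fold change of -0.55 (edgeR adjusted p 9.23e-06), and Casp8ap2, the scaffold FLASH of histone pre-mRNA processing, of -0.43 (edgeR adjusted p 3.32e-05). Eri1, a 3′ exonuclease that degrades histone mRNA, was lower at -0.58 (edgeR adjusted p 7.19e-07). Zfp473, a zinc finger protein of the U7 machinery, was the lowest of the list at -0.74. Of the U7-specific proteins, Lsm10 rose by a log2 fold change of 0.31 and Lsm11 was at -0.11 (edgeR adjusted p 0.414).

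Of 19 histone chaperones, which carry histones to DNA, 14 were lower, 1 higher and 4 not called. Of all tested genes 23.3% were lower and 23.5% higher. The median log2 fold change of the list was -0.29. Nasp, a carrier of H1 and of H3 with H4, was at -0.40 (edgeR adjusted p 2.20e-05). Chaf1a, the large subunit of the CAF-1 complex that places H3 and H4 behind the replication fork, was at -0.49 (edgeR adjusted p 3.32e-04). The lowest was Ipo4, an importin that takes H3 and H4 into the nucleus, at -0.77, and the gene that rose was Atrx, a remodeller that works with Daxx to place H3.3, at 0.13 (edgeR adjusted p 0.0221), a call lost without the Control library 1 or 8 or the Tardbp library 1, 4, 5, 6 or 7.

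The replication-independent and variant histones, most of which are made outside S phase too and from polyadenylated mRNAs, had calls mostly in the other direction. Of 10 tested, 7 were higher, 2 lower and 1 not called, with a median log2 fold change of 0.13. H2afv, a gene of the variant H2A.Z, rose from 127.1 ± 22.3 to 229.0 ± 28.2 CPM (n = 8 each, SD, log2 fold change 0.85, edgeR adjusted p 1.97e-06), with no overlap between groups. H3f3a, a gene of H3.3, rose from 571.5 ± 31.7 to 714.5 ± 58.2 CPM (n = 8 each, SD, log2 fold change 0.32, edgeR adjusted p 2.51e-05). H2afx, whose product is phosphorylated at DNA breaks, was at 0.25, Cenpa, the centromere H3, at 0.15, H2afz at 0.11 and H3f3b at 0.10, all with an edgeR adjusted p of up to 0.0366. The call of H2afz was lost in 14 alternative fits, among them those without the Control library 2, 4, 7 or 8 or the Tardbp library 1, 4, 5, 6 or 7, with adjusted p of up to 0.568. That of H3f3b was lost in 19, and of fits without 1 library only those without the Control library 1 or 6 or the Tardbp library 1 kept it. H1f0, the linker histone of resting cells, was lower at -0.69 (edgeR adjusted p 8.89e-05), in the same direction as 4 of the Hist1h1 genes, and H2afy2, a macroH2A gene, was lower at -1.41 from a level of 0.697 CPM. The sum of the list was 4845 to 5346 CPM in Control gRNA against 5381 to 6105 in Tardbp gRNA, while the 67 replication-dependent members summed to 2202 to 3008 and 2222 to 2741 CPM.

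The 16 called members kept their direction in each of the alternative fits. All 11 other fits with edgeR or DESeq2 kept Hist2h2ac past the threshold, and 10 of 11 kept Hist1h1b and Hist1h2ae. The fit with RNA concentration is among the 11, and it cannot separate the concentration from the group. The fold change was compared between libraries deposited with the letter M and those with F, where the letter matched the higher of Ddx3y and Xist in 6 of 16 libraries. No member had an interaction of group and letter at an adjusted p under 0.05, none of the 16650 genes did, and 2 members had an unadjusted p under 0.05. Within the libraries numbered 4 to 8, 13 members were called, where 40.8% of all tested genes were, and within those numbered 1 to 3, with 3 libraries per group, 3 were called (Hist1h1b, Hist1h2ae and Hist2h2ac), all lower, where 10.1% of all genes were called.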

How the data were processed

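RNA of sorted cells from 16 recipients became libraries by SMART-Seq v4 (oligo-dT priming) and Nextera XT, read as pairs of 100 bases, with 29714709 to 48164083 read pairs counted by the sequencing facility and deposited. The authors' counts per gene and transcript are estimated counts, not normalized, from HISAT2 2.1.0 (mm10), SAMtools 1.9 and StringTie 2.1.0, at 1.89 to 2.02 counts per read pair, and were whole numbers. Copies made by PCR are counted too. A splicing table from Whippet holds Psi per group with the authors' differences and probabilities. It was not used here, since no label ties its lettered columns to a group. RNA concentration and the letter M or F are other deposited annotation. Groups and library numbers came from the labels. Both count files hold 10 more columns, left out because they match none of the samples, and lines without an annotated gene held 0.0836 to 0.132% of counts.

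Tests used R 4.3.3. Genes and transcripts were fitted by edgeR 4.0.16 (two-sided quasi-likelihood test, TMM, filterByExpr with a minimum count of 10) with Benjamini-Hochberg adjustment over all tested features, and called at an adjusted p under 0.05. Transcript shares used limma 3.58.1. DESeq2 1.42.0 was an alternative. The scripts were tested on simulated data. Named members were the 2 with the highest CPM per class and the 6 highest and 6 lowest fold changes among called members, and from the lists some preset genes and the called extremes. Some list genes are not reported here. Any other gene, such as Hist1h1c, Hist1h2ac, Hist2h2aa1, Hist2h3c1 or a pair partner, was named after its values were seen. The members and lists were chosen with earlier results of these data known. Genes and coordinates follow GENCODE M21 (GRCm38), and promoters RefSeq.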

Additional observations from a re-analysis of the deposited data

Results flagged for a closer look

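Of 112 sets of 8 libraries examined, 11 had a highest or lowest library set apart from the rest by Dixon's test at the 95% level, where chance alone flags about 1 in 20. Among histone genes, Hist1h2ac was at 0.0 CPM in the Control library 3, against 45.3 in the next lowest. Hist1h4d was at 42.23 CPM in the Tardbp library 3 (next lowest 74.6). Hist2h3c1 was at 1.999 CPM in the Tardbp library 6 (next lowest 4.159). Hist2h2ac was at 20.47 CPM in the Control library 5 (next lowest 27.41), and Hist1h1d at 14.03 CPM in the Control library 7 (next lowest 17.9). High values were those of Hist1h2ak in the Tardbp library 7, at 46.27 CPM (next highest 30.98), and of Hist1h2ab in the Tardbp library 8, at 40.13 CPM (next highest 34.9).

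Outside the members, H3f3a was at 849.3 CPM in the Tardbp library 4 (next highest 723.5) and Nasp at 318.1 CPM in the Control library 1 (next highest 281.8). Ighm was at 533.6 CPM in the Tardbp library 2 (next lowest 622.3). Tardbp was at 110.4 CPM in the Tardbp library 3 (next lowest 129.8), the library in which Hist1h4d also stood apart.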

How the results depend on the processing

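The 16 called members kept their sign under every alternative run. Their number was 12 to 17 with other scalings, filters or DESeq2, 13 in libraries 4 to 8, 15 with the letter as covariate, 11 at an adjusted p under 0.01, and 13 to 18 when 1 library was left out. It was 3 in libraries 1 to 3, 1 with RNA concentration as covariate and 0 with a log2 fold change over 1 asked as well. Calls over the 4 gene lists, markers left out, went from 62 to 32 in libraries 1 to 3 and to 38 with RNA concentration, and transcripts called from 10 to 0 in libraries 1 to 3. The causes of these drops were not tested, though libraries 1 to 3 leave fewer samples and RNA concentration cannot be told apart from the group. Myeloid markers called went from 2 to between 0 and 6. With the library number as a replicate block 16 members were called, 12 lower and 4 higher, 15 of them the same. Deviations of libraries of the same number correlated at -0.005 to 0.16, and 5 of 16 libraries were closest to their own number, so the numbers were not taken as pairs. The filter on low counts left 5 members untested, and with no filter 66 were tested.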
